A study of Mus musculus with 12 samples.

Results

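Collagens are the family of extracellular matrix proteins whose chains wind around each other into a helix. The members described here are the genes of the expression table whose symbol is Col, a type number, the letter a and a chain number. The table holds 44 such genes among 40202, of which 11 encode fibrillar chains, 8 encode basement membrane chains and 25 encode other collagens. All 44 passed the filter on low values. With limma-trend on all 12 libraries at equal weight, no collagen was called at an adjusted p under 0.05 in any comparison. For laser under cp-asiNRL, 16 were called higher once 1 outlying library was left out, in a fit that called 9.92% of all genes higher and 7.96% lower. That library was picked from these same data, and leaving out either other library of its group called 0 members. With that library kept but down-weighted (limma voom with quality weights), 16 were called, among 17.2% of genes. Its weight was estimated from the same data, so this is not separate support, and voom without such weights called 0.

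Fibrillar collagens (types I, II, III, V, XI, XXIV and XXVII) assemble into the fibrils of sclera, vitreous and scar. Type IV collagen forms the network of basement membranes, which in the eye include the inner limiting membrane, the walls of retinal vessels and the layers of Bruch's membrane beneath the pigment epithelium. Types XV and XVIII are multiplexins that sit beside those membranes, and the C-terminal fragment of type XVIII is endostatin. The FACIT collagens (types IX, XII, XIV, XVI, XIX, XX and XXII) bind to fibril surfaces, and type IX does so with types II and XI in vitreous. Type VI forms beaded filaments, type VIII a hexagonal lattice known from corneal endothelium and vessels, and types XIII, XVII, XXIII and XXV span the cell membrane.

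Retinal RNA came from C57BL/6J mice in 4 groups of 3 libraries. WT retina and retina with laser-induced choroidal neovascularisation (CNV) were each sampled after an injection into the vitreous of 1 µl of either vehicle, which was 0.5X PBS, or 6 µg/µl cp-asiNRL. The latter is an asymmetric small interfering RNA, made to enter cells, that targets Nrl, the transcription factor of rod fate. In laser CNV, burns through Bruch's membrane let choroidal vessels grow inward. All groups had the injection, and the control injection held no other small interfering RNA. The labels give neither age, time of collection nor the number of animals behind a library, so each p-value reflects the spread among these libraries alone, and that spread may be technical.

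Reads in genes totalled 51298466 to 69394486 per library. A read counted for a gene if it lay anywhere in the genomic span, introns included. Whether reads of opposite strands and of overlapping genes were separated is not known here. Levels are CPM (reads per 1000000, after trimmed-mean scaling), and changes are differences of log2(CPM + 1) with their standard error (SE) from limma. This scale understates the change of low genes. Nrl was at 505 to 560.1 CPM in WT vehicle, 397 to 467 in WT cp-asiNRL, 423 to 524 in CNV vehicle and 263.3 to 483.2 CPM in CNV cp-asiNRL libraries. One library, labelled CNV cp-asiNRL replicate 2, differed from its group. Nrl was at 483.2 CPM in it against 324.2 and 263.3 CPM in replicates 1 and 3, and Gfap, a marker of reactive glia, at 10.7 CPM against 41.6 and 40.7 CPM. Calls that change without CNV cp-asiNRL replicate 2 are given both ways. That library was picked from these same data, and its group then holds replicates 1 and 3 only. The p-values of fits without it are therefore likely too small. In bulk RNA, fewer cells of a type and less RNA per cell cannot be told apart.

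The type IV genes lie in head-to-head pairs, so that a pair of chains is read outward from a shared stretch of DNA. In GRCm39, the build of the table's coordinates, Col4a1 (chromosome 8, 11248423 to 11362889, minus strand) and Col4a2 (chromosome 8, 11362805 to 11499287, plus strand) overlap by 85 bases. The 5′ ends of Col4a4 and Col4a3 on chromosome 1 lie 72 bases apart, and those of Col4a6 and Col4a5 on X lie 1276 bases apart. The promoter windows of 2 pairs are shown because both partners of each have a window in the RefSeq table (GRCm38.p6, 250 bases before to 50 after the gene start), 5′ to 3′ on the gene's own strand. Capitals mark CCAAT or its reverse ATTGG, and GGGCGG or its reverse CCGCCC (the GC box).
Col4a1 (chr8:11312777-11313076, minus strand): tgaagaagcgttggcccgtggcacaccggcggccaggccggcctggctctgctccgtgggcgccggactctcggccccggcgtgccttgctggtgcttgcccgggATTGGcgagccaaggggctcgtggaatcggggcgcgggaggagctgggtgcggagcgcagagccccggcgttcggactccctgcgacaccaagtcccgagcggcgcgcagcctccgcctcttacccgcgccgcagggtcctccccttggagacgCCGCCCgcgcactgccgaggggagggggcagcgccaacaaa
Col4a2 (chr8:11312555-11312854, plus strand): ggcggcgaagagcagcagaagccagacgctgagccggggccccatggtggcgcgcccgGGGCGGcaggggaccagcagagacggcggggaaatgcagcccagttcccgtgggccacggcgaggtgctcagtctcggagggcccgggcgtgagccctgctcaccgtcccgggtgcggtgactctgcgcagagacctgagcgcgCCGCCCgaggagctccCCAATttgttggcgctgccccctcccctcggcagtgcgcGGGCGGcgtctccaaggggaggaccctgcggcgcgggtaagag
Col4a6 (chrX:141474027-141474326, minus strand): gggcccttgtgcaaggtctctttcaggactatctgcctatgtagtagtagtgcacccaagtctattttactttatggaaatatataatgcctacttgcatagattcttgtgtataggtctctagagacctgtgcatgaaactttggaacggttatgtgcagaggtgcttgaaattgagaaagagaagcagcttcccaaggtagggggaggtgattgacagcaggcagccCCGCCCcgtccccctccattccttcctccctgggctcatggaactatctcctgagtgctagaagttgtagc
Col4a5 (chrX:141475169-141475468, plus strand): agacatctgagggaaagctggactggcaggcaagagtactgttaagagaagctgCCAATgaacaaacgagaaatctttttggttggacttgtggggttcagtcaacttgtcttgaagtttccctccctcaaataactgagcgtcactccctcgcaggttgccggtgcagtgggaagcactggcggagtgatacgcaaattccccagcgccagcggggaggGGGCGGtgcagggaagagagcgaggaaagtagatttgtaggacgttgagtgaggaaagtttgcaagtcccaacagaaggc
The Col4a1 and Col4a2 windows share 78 bases, read from opposite strands, and their starts are 21 bases apart in this table. Each of these 2 windows holds 1 CCAAT box, and the GC box is found 1 time in that of Col4a1 and 3 times in that of Col4a2. The Col4a1 GC box lies in the shared bases and is the same site as 1 of the 3 of Col4a2. The windows of Col4a5 and Col4a6 share 0 bases and each holds 1 GC box. Only the Col4a5 window of that pair has a CCAAT box. RefSeq windows were found for 35 members, 38 windows in all. Of these, 13 hold CCAAT or ATTGG, against 37.4% of all 32851 windows in the table, and 23 hold GGGCGG or CCGCCC, against 35.7%. TATAAA or TTTATA is found in 5 of 38, against 13.6%. A match is a run of letters and not a measured binding site.

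In WT retina with vehicle, the 44 collagens together took 589 to 599 CPM. Basement membrane members took 155 to 169 CPM, fibrillar members 52.4 to 55.3 CPM and the others 376 to 381 CPM. Over all 12 libraries, 16 members had a mean of at least 10 CPM, 21 lay between 1 and 10 CPM and 7 were below 1 CPM. Levels of different genes were compared as CPM per kb of coding length, from GENCODE M21. On this scale Col23a1, a membrane-spanning collagen, stood first in WT retina with vehicle at 54.4 ± 2.99 (SD, n = 3 here and throughout). Col25a1, the membrane-spanning precursor of a component of amyloid plaques, was second at 35.2 ± 1.52. Col9a1, the α1 chain of type IX, came next at 19.5 ± 0.831. Col19a1 (11.6 ± 1.39), Col4a3 (9.67 ± 1.45) and Col20a1 (9.04 ± 0.808) followed, and neighbours among these last 3 differed by less than the sum of their SDs. The fibrillar member with the highest level per coding kb was Col2a1, the vitreous fibril chain, at 3.54 ± 0.32, rank 13 of 44. The chains of types I and III lay near the bottom, Col1a2 at 0.227 ± 0.056, Col3a1 at 0.188 ± 0.067 and Col1a1 at 0.046 ± 0.006.

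**Figure D1:**
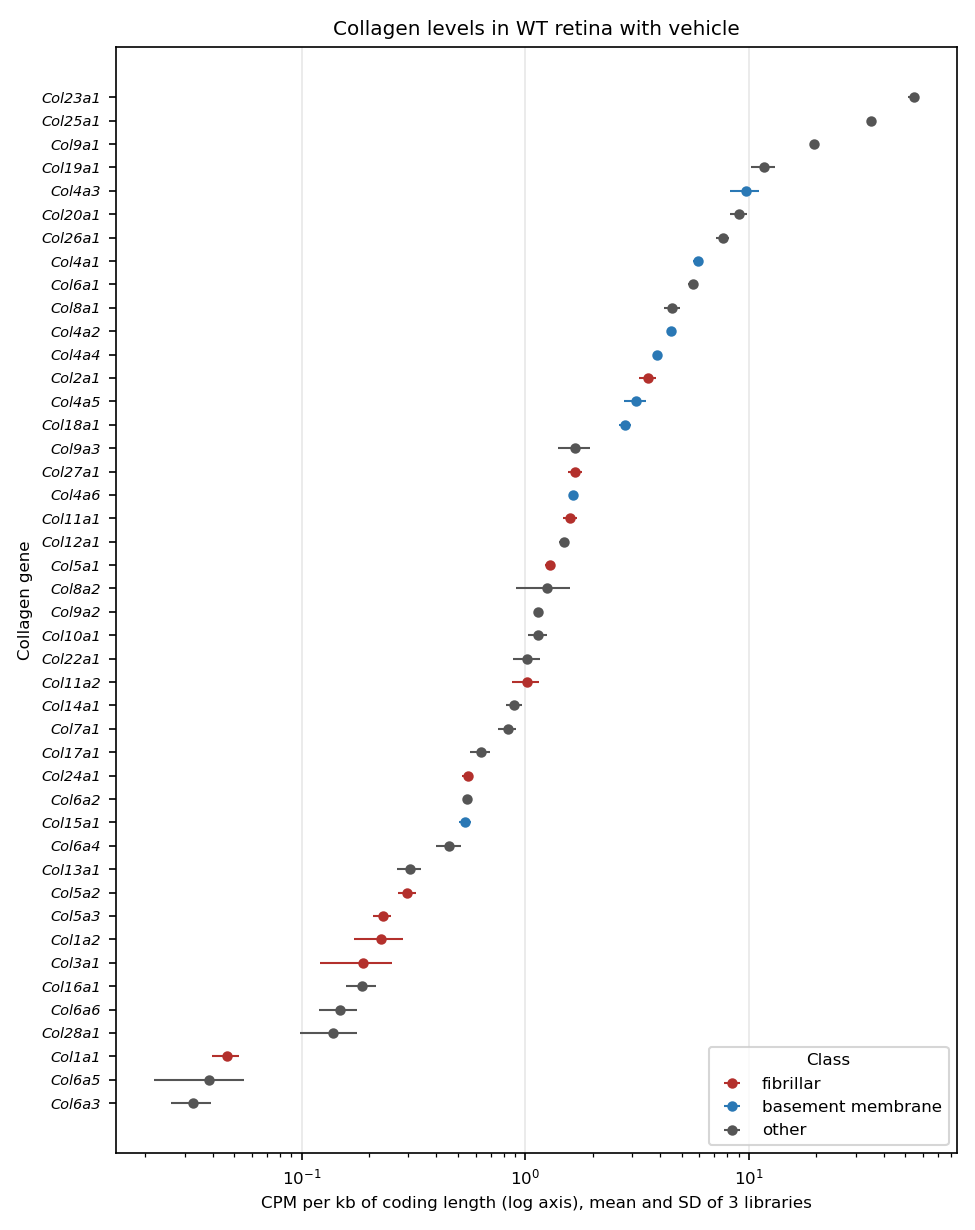
Level of each of the 44 collagens in WT retina with vehicle, in CPM per kb of coding length on a log axis; points are means and bars SDs of 3 libraries, coloured by class. Col23a1 and Col25a1 stand at 54.4 and 35.2, and Col1a1, Col6a5 and Col6a3 lie below 0.05.

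The order depends on the length used, because intronic reads count. Per kb of genomic span, Col20a1 was first (1.13 ± 0.101 CPM per kb), followed by Col6a1 and Col9a1, whereas Col23a1 was 7th and Col25a1 12th. The members span a median of 114.4 kb against 18.2 kb for all tested genes. In the table, 21 members share bases with another gene, 17 of them with one on the opposite strand. Col10a1, the hypertrophic cartilage collagen, lies wholly inside Nt5dc1 on the opposite strand. If strands were not separated, its reads cannot be told apart from that gene's, so its value is uncertain. Col4a3 shares 22.6% of its span with C430014B12Rik, Col5a1 9.7% with Gm13372, Col2a1 21.4% with Gm46536, and Col4a1 21.6% with Gm32709 and 10.8% with Gm15418. All of these partners lie on the opposite strand, so values of these members are uncertain. Col13a1 (20.6% with Gm40674), Col15a1 (16.5% with Gm52734) and Col4a2 (13.8% with LOC118567541) also share bases with opposite-strand genes. The share of the span does not give the size of the uncertainty, because reads of the partner matter too. Col28a1 shares only 0.756% with Gm35446, also on the opposite strand, which averaged 1415.4 reads against its 45.8.

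The tissue label was checked against cell type markers. Among retinal neuron markers, Gnat1, the transducin of rod photoreceptors, was at 1439.8 to 2839 CPM and Rbpms, of ganglion cells, at 40.4 to 55.3 CPM. The 8 markers of fibroblasts and sclera, which make types I and III, summed to 9.94 to 12.4 CPM in WT libraries, with Lum and Kera under 0.1 CPM on average. They reached 16.2 to 17.9 CPM with laser and vehicle, and 16.5, 11.1 and 17.3 CPM in replicates 1 to 3 with laser and cp-asiNRL. Pdgfra made up most of the WT vehicle sum (mean 7.36 CPM). Fbln1 made up most of the rise with laser under vehicle, from a mean of 1.02 to 4.62 CPM. The 8 pigment epithelium markers summed to 18.7 to 41.2 CPM, and the 7 endothelial ones to 45.6 to 60.9 CPM. Of 4 markers of corneal and surface epithelium, Krt12 was at 0.339 to 0.893 CPM. Krt14 was at 0 in all libraries and Krt5 and Krt15 were under 0.1 CPM on average.

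Across the 12 libraries the median member varied 1.64-fold between its lowest and highest library, and 15 members varied more than 2-fold. Col20a1 varied least (1.19-fold, 33.3 to 39.7 CPM). Col1a1 varied most, because WT cp-asiNRL replicate 2 held 1 read of it and the highest library, CNV vehicle replicate 2, held 40.

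**Figure D2:**
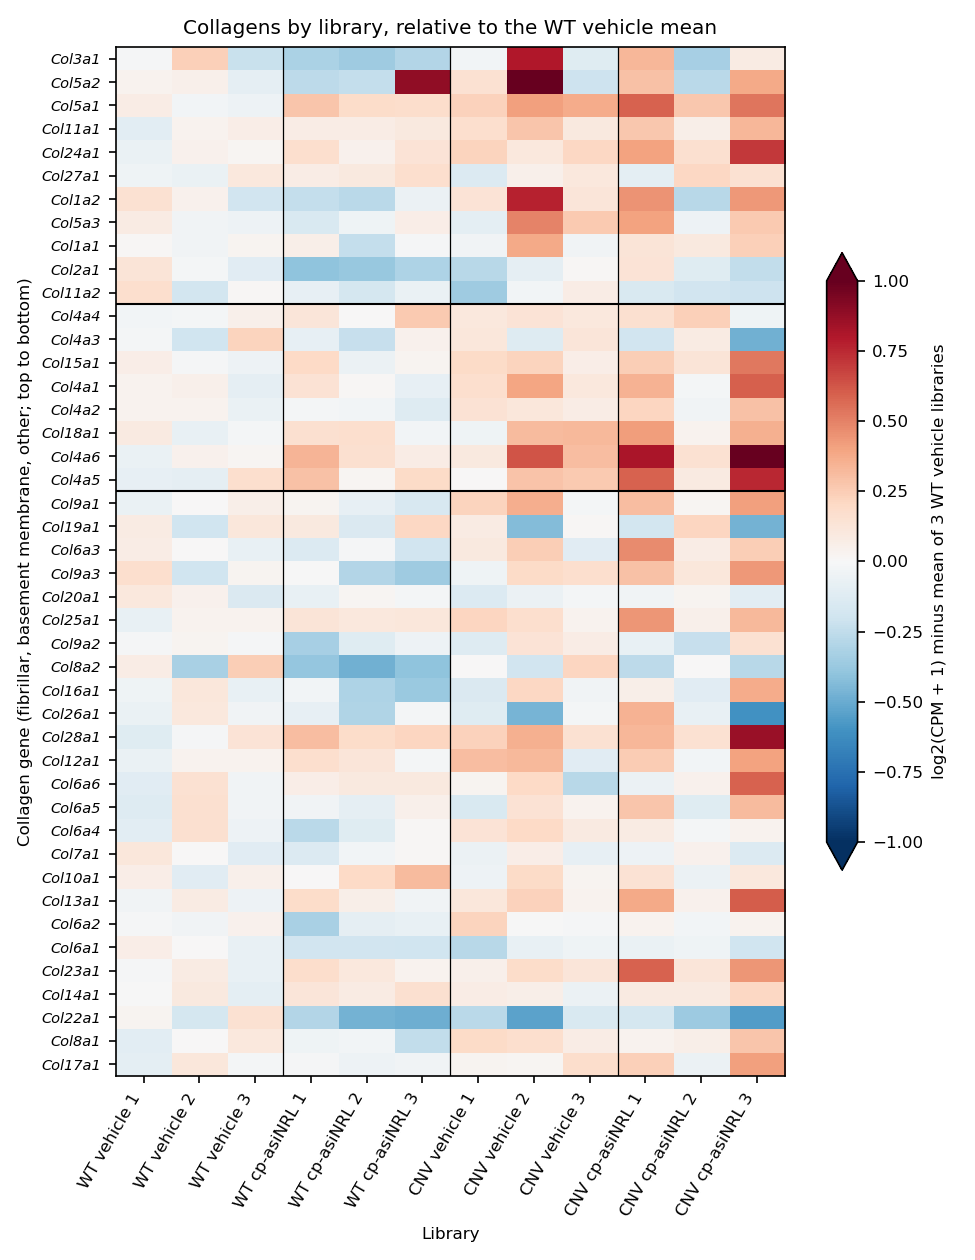
Collagens (rows, by class) in each of 12 libraries (columns), as log2(CPM + 1) minus the mean of the 3 WT vehicle libraries; red is higher, blue lower, and the scale ends at 1 in either direction. CNV cp-asiNRL replicates 1 and 3 are redder than replicate 2, and CNV vehicle replicate 2 is high for Col3a1, Col5a2 and Col1a2.

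The first comparison asked how collagens differed after laser when both groups had vehicle. None of the 44 members was called by limma (0 of 25619 genes were, 0%). At an unadjusted p under 0.05, 2 members were higher (3.98% of all genes) and 1 was lower (3.69%). The members' median log2 change was 0.11, with 35 of 44 above 0, beside a median of 0.00 and 49.7% above 0 over all genes. By class the median was 0.18 for fibrillar, 0.17 for basement membrane and 0.06 for other collagens, and all 8 basement membrane members were above 0. In 9 members every lasered library lay above every WT library (7.54% of all genes did), and in 0 members below (8.04%). These 9 were Col4a1, Col4a2, Col4a4, Col4a6, Col5a1, Col11a1, Col24a1, Col25a1 and Col28a1. The value of Col28a1 is uncertain because of the overlap with Gm35446. Without CNV vehicle replicate 2, 27 of 44 were above 0 with a median of 0.08.

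The second comparison asked the same when both groups had cp-asiNRL. Again 0 members and 0% of genes were called by limma. Here 15 members were higher at an unadjusted p under 0.05 (34.1% of members, against 9.47% of all genes) and 0 were lower (7.74%). The median log2 change was 0.20, with 37 of 44 above 0, against 0.01 and 52.3% over all genes. In 7 members the groups did not overlap, all higher with laser (8.83% of genes) and 0 lower (8.37%): Col1a1, Col2a1, Col6a2, Col6a3, Col8a1, Col8a2 and Col9a3. Without CNV cp-asiNRL replicate 2, limma called 16 members, all higher, against 9.92% of all genes called higher and 7.96% lower. By class these were 3 of 11 fibrillar, 4 of 8 basement membrane and 9 of 25 other members. That library was singled out in these same data, so the p-values of this fit are likely too small. Leaving out CNV cp-asiNRL replicate 1 or replicate 3 instead called 0 members. With voom and sample quality weights, which keep replicate 2 at a weight of 0.265, 16 members were called among 17.2% of genes. The weight was estimated from these same data, and voom without such weights called 0 members. The group contrasts share control libraries, so their results are not independent of each other.

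The third comparison, cp-asiNRL against vehicle in WT retina, gave no called member where limma called 0.141% of all genes. At an unadjusted p under 0.05, 1 member was higher (5.55% of genes) and 4 were lower (9.79%). The median was -0.03 with 20 of 44 above 0. With treatment, 6 members lay wholly above (11% of genes) and 7 wholly below (15.8%). Voom with quality weights called 2 members among 6.66% of genes, Col2a1 and Col22a1. The 6 WT libraries alone gave 5 members called lower (6.68% of genes were), Col2a1, Col3a1, Col6a1, Col8a2 and Col22a1. In lasered retina, cp-asiNRL against vehicle likewise gave no called member (0.0468% of genes), with 2 higher (7.65%) and 0 lower (8.41%) at an unadjusted p under 0.05 and a median of 0.05. In 1 member, Col14a1, treated libraries lay wholly above (6.32% of genes) and in 1, Col6a4, wholly below (6.73%). Without CNV cp-asiNRL replicate 2, 6 members were called higher (8.87% of genes) and 1 lower (8.66%), and voom with quality weights called 4 (11.4%). The interaction, which tests whether the laser difference itself differed between injections, called 0 members and 0% of genes. At an unadjusted p under 0.05 it had 3 members above 0 (3.17% of genes) and 0 below (3.04%).

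**Figure D3:**
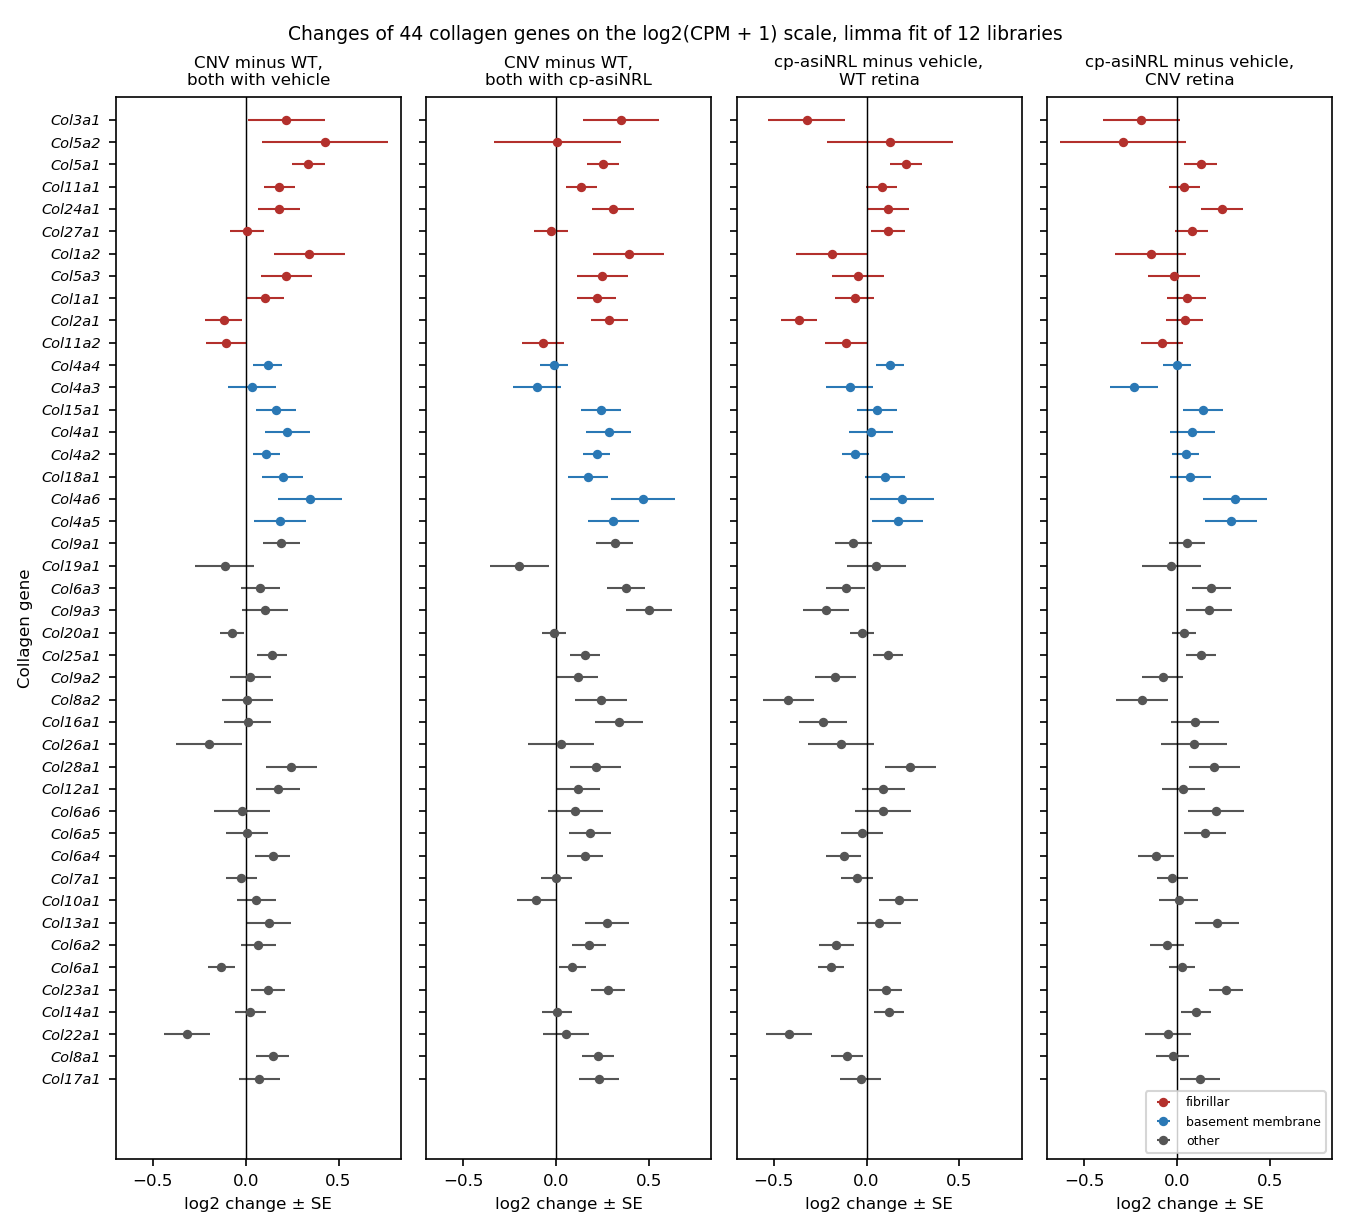
log2 change with its SE for each of 44 collagens in 4 comparisons, from the limma fit of 12 libraries; the vertical line is no change and colours give the class. In the panel for laser with cp-asiNRL, 37 of 44 points lie above 0, and in that for cp-asiNRL in WT retina 20 do.

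Among fibrillar members, Col1a1 and Col1a2 encode the chains of type I and Col3a1 that of type III, the main collagens of sclera and scar. Col3a1 was at 0.792, 1.13 and 0.546 CPM in WT vehicle, 0.452, 0.412 and 0.475 in WT cp-asiNRL, 0.774, 2.15 and 0.667 in CNV vehicle, and 1.28, 0.437 and 0.911 CPM in CNV cp-asiNRL libraries (replicates 1 to 3). The high value of the CNV vehicle group was that of replicate 2 alone, and the WT cp-asiNRL libraries lay below all 3 WT vehicle ones. The log2 change was 0.22 (SE 0.21, adjusted p = 0.79) with laser under vehicle and -0.32 (SE 0.21, adjusted p = 0.482) with cp-asiNRL in WT retina. In a fit of the 6 WT libraries alone, Col3a1 was called lower (-0.32, adjusted p = 0.044).

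Col1a2 was at 1.14, 0.982 and 0.683 CPM in WT vehicle, 0.633, 0.601 and 0.844 in WT cp-asiNRL, 1.11, 2.29 and 1.1 in CNV vehicle, and 1.63, 0.587 and 1.61 CPM in CNV cp-asiNRL. Its highest library was again CNV vehicle replicate 2, and CNV cp-asiNRL replicate 2 was the lowest of all. With laser under cp-asiNRL its log2 change was 0.39 (SE 0.19, adjusted p = 0.308), and without CNV cp-asiNRL replicate 2 it was 0.63 (SE 0.16, adjusted p = 0.0123). Col1a1 had 9 to 13 reads in WT vehicle, 1 to 14 in WT cp-asiNRL, 9, 40 and 11 in CNV vehicle and 19, 19 and 29 in CNV cp-asiNRL libraries. All 3 libraries with laser and cp-asiNRL lay above those with cp-asiNRL alone (log2 change 0.22, SE 0.10, adjusted p = 0.299).

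The summed level of Col1a1, Col1a2 and Col3a1 was 5.0 CPM in CNV vehicle replicate 2 and 1.03 to 3.22 CPM in the other 11 libraries. Col5a2, a chain of type V that was looked at after its values were seen, was at 4.89 CPM in that library and at 3.31 CPM in WT cp-asiNRL replicate 3, against 0.934 to 2.04 CPM elsewhere. The 8 fibroblast and sclera markers summed to 16.2, 17.9 and 17.9 CPM in CNV vehicle replicates 1 to 3. Within this group Dcn, Lum, Pdgfra and Fmod were highest in replicate 2, Ogn, Kera and Mfap5 in replicate 1, and Fbln1 in replicate 3. Reactive glia markers summed to 55.9 CPM in replicate 2 against 19.4 and 21.8 CPM. The part of either cell type in the collagen values was not tested.

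**Figure D4:**
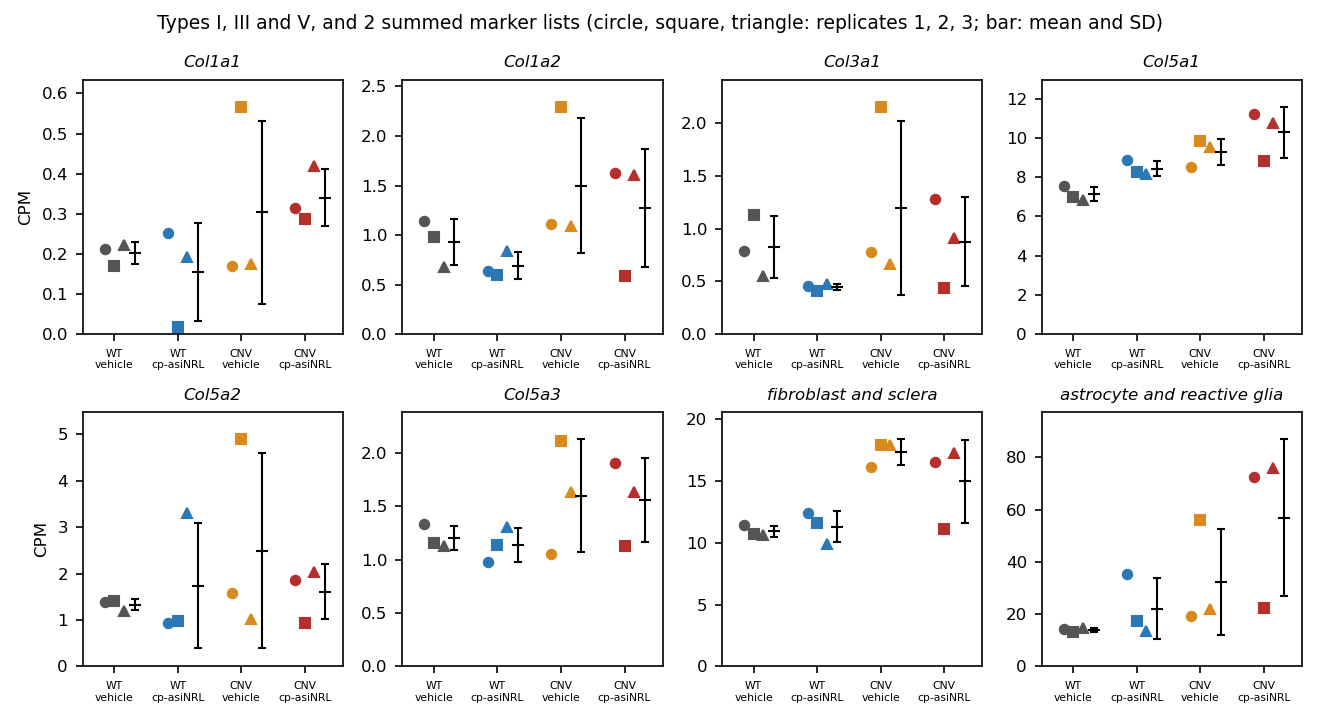
CPM of types I, III and V collagen chains and the summed CPM of 2 marker lists in each library of 4 groups; symbols are replicates 1, 2 and 3, and the bar beside them is the mean and SD of 3. CNV vehicle replicate 2 (square) is highest for Col1a1, Col1a2, Col3a1, Col5a2 and Col5a3, and CNV cp-asiNRL replicate 2 lies inside the range of the 6 WT libraries in both lists.

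Col5a1, the main chain of type V and a nucleator of collagen fibrils, had the smallest p of any member for laser under vehicle. It was at 7.56, 7.0 and 6.86 CPM in WT vehicle, 8.87, 8.26 and 8.18 in WT cp-asiNRL, 8.54, 9.82 and 9.53 in CNV vehicle, and 11.2, 8.82 and 10.8 CPM in CNV cp-asiNRL. The WT vehicle libraries were the 3 lowest of the 12. The log2 change was 0.34 with laser under vehicle (SE 0.09, adjusted p = 0.459) and 0.25 with laser under cp-asiNRL (SE 0.09, adjusted p = 0.218). Without CNV cp-asiNRL replicate 2, the second was 0.35 and called (adjusted p = 0.00882), and the first was not (adjusted p = 0.0712, 0.29% of genes called).

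Col11a1, a chain of type XI, which lies inside cartilage and vitreous fibrils, was at 7.94, 8.84 and 9.07 CPM in WT vehicle, 9.10, 9.12 and 9.29 in WT cp-asiNRL, 9.78, 10.7 and 9.26 in CNV vehicle, and 10.6, 8.97 and 11.1 CPM in CNV cp-asiNRL. The 3 lasered vehicle libraries were above the 3 WT ones (log2 change 0.18, SE 0.08, adjusted p = 0.648). Col24a1, a fibrillar collagen known from bone, was at 2.71, 3.0 and 2.94 CPM in WT vehicle, 3.35, 3.01 and 3.27 in WT cp-asiNRL, 3.53, 3.18 and 3.48 in CNV vehicle, and 4.13, 3.34 and 5.32 CPM in CNV cp-asiNRL. Its 2 highest libraries were CNV cp-asiNRL replicates 1 and 3. Its change with cp-asiNRL in lasered retina was 0.24 (SE 0.11, adjusted p = 0.31), and 0.37 (SE 0.10, adjusted p = 0.0218) without replicate 2 of that group.

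Col2a1, the type II chain of vitreous and cartilage fibrils, had the smallest p of any member for cp-asiNRL in WT retina. It was at 17.3, 15.5 and 14.5 CPM in WT vehicle and at 11.7, 11.9 and 12.5 CPM in WT cp-asiNRL, the 3 lowest of all 12 libraries. It was at 12.8, 14.8 and 15.9 CPM in CNV vehicle and 17.4, 14.4 and 13.1 CPM in CNV cp-asiNRL, where the groups overlapped. With cp-asiNRL the log2 change in WT retina was -0.36 (SE 0.10, adjusted p = 0.119). The change in lasered retina was 0.04 (SE 0.10, adjusted p = 0.862), and the interaction was 0.41 (SE 0.14, adjusted p = 0.788). The call in WT retina depended on the fit, with an adjusted p of 0.00326 from the 6 WT libraries alone, 0.0212 from voom with sample quality weights and 0.0487 without CNV cp-asiNRL replicate 2, a fit that called 2.34% of genes lower.

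Among basement membrane members, Col4a1 and Col4a2 encode the chains of the common type IV network. Col4a1 was at 30.5, 30.8 and 27.8 CPM in WT vehicle, 32.8, 30.0 and 27.9 in WT cp-asiNRL, 33.4, 39.4 and 32.1 in CNV vehicle, and 38.0, 29.2 and 45.4 CPM in CNV cp-asiNRL. Lasered libraries with vehicle lay above the WT ones, and with cp-asiNRL only replicates 1 and 3 did. The log2 change with laser was 0.22 (SE 0.12, adjusted p = 0.678) under vehicle and 0.28 (SE 0.12, adjusted p = 0.259) under cp-asiNRL. Without CNV cp-asiNRL replicate 2 the latter was 0.45 (SE 0.09, adjusted p = 0.00396).

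Col4a2 was at 23.5, 23.5 and 21.9 CPM in WT vehicle, 22.6, 22.5 and 20.9 in WT cp-asiNRL, 25.5, 24.9 and 24.3 in CNV vehicle, and 26.9, 22.3 and 28.4 CPM in CNV cp-asiNRL. As for its partner, CNV cp-asiNRL replicates 1 and 3 were high and replicate 2 was not, but CNV vehicle replicate 2, the highest of its group for Col4a1, was not so for Col4a2. Its log2 change with laser was 0.11 (SE 0.07, adjusted p = 0.719) under vehicle and 0.22 (SE 0.07, adjusted p = 0.214) under cp-asiNRL, or 0.32 (adjusted p = 0.00284) without CNV cp-asiNRL replicate 2.

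Col4a5 encodes the chain that joins either Col4a3 and Col4a4 or Col4a6 in other type IV networks. It was at 14.8, 14.7 and 17.8 CPM in WT vehicle, 19.5, 15.9 and 18.1 in WT cp-asiNRL, 15.8, 19.4 and 19.0 in CNV vehicle, and 24.2, 16.8 and 27.2 CPM in CNV cp-asiNRL. Replicates 1 and 3 of the last group were the highest of all 12 libraries. In lasered retina its log2 change with cp-asiNRL was 0.29 (SE 0.14, adjusted p = 0.315), and 0.49 (SE 0.10, adjusted p = 0.00489) without replicate 2.

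Its neighbour Col4a6, picked for description after the values were seen, was at 7.90, 8.59 and 8.45 CPM in WT vehicle, 10.8, 9.41 and 8.81 in WT cp-asiNRL, 8.95, 13.4 and 10.5 in CNV vehicle, and 15.4, 9.35 and 17.7 CPM in CNV cp-asiNRL. Its log2 change with laser under cp-asiNRL was 0.47 (SE 0.17, adjusted p = 0.23), and 0.72 (SE 0.12, adjusted p = 0.0014) without CNV cp-asiNRL replicate 2. Col4a3, the chain targeted by antibodies in Goodpasture disease, was also picked after its values were seen. It was at 52.0, 43.8 and 52.5 CPM in CNV vehicle and at 42.0, 50.9 and 34.2 CPM in CNV cp-asiNRL. With cp-asiNRL in lasered retina it was called lower in the fit without replicate 2 (-0.37, SE 0.11, adjusted p = 0.0341), against -0.23 (adjusted p = 0.38) with all 12 libraries.

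Col18a1, the source of endostatin, was at 15.9, 14.1 and 14.7 CPM in WT vehicle, 16.8, 16.8 and 14.6 in WT cp-asiNRL, 14.4, 18.8 and 18.9 in CNV vehicle, and 20.2, 15.3 and 19.3 CPM in CNV cp-asiNRL. Groups overlapped in every comparison, and the log2 change was 0.20 (SE 0.11, adjusted p = 0.682) with laser under vehicle and 0.17 (SE 0.11, adjusted p = 0.421) under cp-asiNRL. Summed over the 8 basement membrane members, levels were 155 to 169 CPM in WT vehicle, 157 to 172 in WT cp-asiNRL, 174 to 184 in CNV vehicle, and 192, 170 and 195 CPM in CNV cp-asiNRL. Endothelial markers summed to 46.2 to 49 CPM in WT vehicle and to 45.6, 60.9 and 48.1 CPM in CNV vehicle, and mural cell markers to 64.7 to 65.9 CPM and 65.1, 76.0 and 69.3 CPM. Most of the endothelial excess of CNV vehicle replicate 2 was Vwf, at 5.04, 13.6 and 4.89 CPM in replicates 1 to 3. Lens markers, whose tissue has a basement membrane capsule, summed to 2.25 to 5.03 CPM in 11 libraries and to 8.2 CPM in CNV cp-asiNRL replicate 1. Of the latter sum, Cryaa was 3.40 CPM. The part of vessel and lens cells in the collagen sums was not tested.

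**Figure D5:**
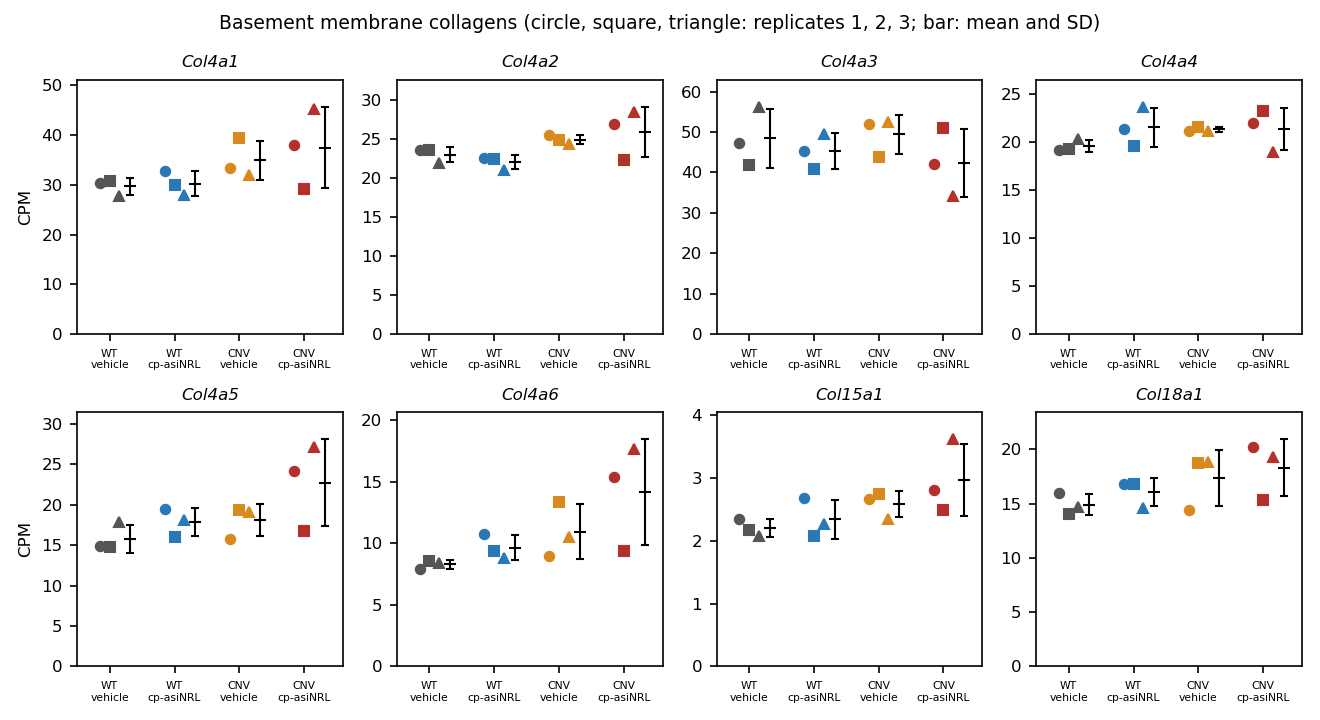
CPM of the 8 basement membrane collagens in each library of 4 groups; symbols are replicates 1, 2 and 3, and the bar beside them is the mean and SD of 3. In CNV cp-asiNRL, replicate 2 (square) lies below replicates 1 and 3 for Col4a1, Col4a2, Col4a5, Col4a6, Col15a1 and Col18a1, and above both for Col4a3 and Col4a4.

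Among the fibril-associated members, Col9a1, Col9a2 and Col9a3 encode the chains of type IX. Col9a1 was at 51.6, 54.2 and 56.1 CPM in WT vehicle, 54.9, 51.0 and 48.1 in WT cp-asiNRL, 63.2, 69.7 and 53.3 in CNV vehicle, and 67.1, 54.7 and 71.9 CPM in CNV cp-asiNRL. The groups overlapped, with 4 lasered libraries above 60 CPM. Its log2 change with laser under cp-asiNRL was 0.32 (SE 0.10, adjusted p = 0.211), and 0.43 (SE 0.09, adjusted p = 0.00356) without CNV cp-asiNRL replicate 2.

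Col9a3 had the smallest p of any member in that comparison. It was at 3.94, 2.83 and 3.47 CPM in WT vehicle, 3.37, 2.58 and 2.43 in WT cp-asiNRL, 3.27, 4.0 and 3.94 in CNV vehicle, and 4.38, 3.75 and 4.93 CPM in CNV cp-asiNRL. All 3 lasered libraries with cp-asiNRL were above those with cp-asiNRL alone, also in replicate 2 (log2 change 0.50, SE 0.12, adjusted p = 0.211). Without that replicate it was 0.58 (SE 0.13, adjusted p = 0.00614). The ciliary epithelium is known to make vitreous collagens. Its markers Optc, Zic1 and Wfdc1 summed to 3.12 to 4.13 CPM in WT libraries and 4.70 to 6.74 in CNV vehicle. In CNV cp-asiNRL these markers summed to 5.31, 3.30 and 5.06 CPM. Their part in the values of Col2a1, Col9a1 and Col9a3 was not tested.

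Col22a1, a FACIT of tissue junctions such as that of muscle and tendon, was at 5.0, 4.21 and 5.57 CPM in WT vehicle, above all 3 WT cp-asiNRL libraries at 3.82, 3.25 and 3.20 CPM. It was at 3.89, 3.08 and 4.32 CPM in CNV vehicle and 4.21, 3.6 and 3.01 CPM in CNV cp-asiNRL. The log2 change was -0.42 with cp-asiNRL in WT retina (SE 0.12, adjusted p = 0.14) and -0.32 with laser under vehicle (SE 0.12, adjusted p = 0.621), both against the same WT vehicle libraries. It was called lower with cp-asiNRL in the 6 WT libraries alone (adjusted p = 0.0121).

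Col8a2, a chain of the hexagonal type VIII lattice, was at 2.76, 1.85 and 3.24 CPM in WT vehicle, 1.74, 1.56 and 1.71 in WT cp-asiNRL, 2.59, 2.12 and 3.14 in CNV vehicle, and 1.97, 2.57 and 1.95 CPM in CNV cp-asiNRL. The WT cp-asiNRL libraries were the 3 lowest of all (log2 change -0.42, SE 0.14, adjusted p = 0.174), and the 6 WT libraries alone gave an adjusted p of 0.0277. Pigment epithelium markers were low in the same libraries, with sums of 29.2 to 36.9 CPM in WT vehicle and 18.7 to 21.9 CPM in WT cp-asiNRL, and their part was not tested.

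In type VI, Col6a1 encodes the α1 chain of the beaded filament. It was at 18.2, 17.4 and 16.4 CPM in WT vehicle, 15, 15.1 and 15 in WT cp-asiNRL, 14.1, 16.4 and 16.8 in CNV vehicle, and 16.5, 16.8 and 15 CPM in CNV cp-asiNRL. The WT groups did not overlap (log2 change -0.19, SE 0.07, adjusted p = 0.222), and the interaction was 0.22 (SE 0.10, adjusted p = 0.788). Col6a3, the large α3 chain, had few reads, 15 to 20 in WT vehicle, 9 to 18 in WT cp-asiNRL, 22, 40 and 14 in CNV vehicle, and 50, 26 and 39 in CNV cp-asiNRL. With laser under cp-asiNRL its log2 change was 0.38 (SE 0.10, adjusted p = 0.211). The value without CNV cp-asiNRL replicate 2 was 0.47 (SE 0.10, adjusted p = 0.00592). At this low level the added 1 CPM compresses the change. Voom, which adds a smaller constant to the reads, gave 1.35 (SE 0.41, adjusted p = 0.242), and 1.57 (SE 0.36, adjusted p = 0.0108) with sample quality weights as well.

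Among membrane-spanning members, Col23a1, with the highest level per coding kb, was at 86.0, 92.0 and 82.6 CPM in WT vehicle, 98.1, 93.2 and 88.8 in WT cp-asiNRL, 90.1, 98.8 and 94.4 in CNV vehicle, and 131, 94.5 and 118 CPM in CNV cp-asiNRL. Replicates 1 and 3 of the last group were above the other 10 libraries. It had the smallest p of any member for cp-asiNRL in lasered retina (log2 change 0.26, SE 0.09, adjusted p = 0.241), and the change was 0.39 (SE 0.06, adjusted p = 0.00114) without replicate 2. The 4 membrane-spanning members summed to 156 to 168 CPM in WT vehicle, 168 to 179 in WT cp-asiNRL, 171 to 181 in CNV vehicle, and 231, 171 and 212 CPM in CNV cp-asiNRL. Reactive glia markers summed to 72.5, 22.4 and 75.8 CPM in the same 3 libraries, higher in the 2 replicates with the higher collagen sums, and their part in them was not tested.

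Chains that pair in 1 molecule were not measured in equal amounts. Reads of Col4a1 were 1.27 to 1.6 times those of Col4a2, whose coding lengths are 5007 and 5121 bases. Col4a3 had 1.80 to 2.76 times the reads of Col4a4, and Col4a5 1.45 to 2.11 times those of Col4a6. Col6a1 had 6.55 to 13.0 times the reads of Col6a2, and Col9a1 21.1 to 33.0 times those of Col9a2. For type I, Col1a2 had 2.05 to 6.56 times the reads of Col1a1, and 35 times in WT cp-asiNRL replicate 2, where Col1a1 had 1 read. These ratios are of reads over genomic spans, which differ in introns, and not of chains.

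Long genes as a group shifted slightly. Among genes averaging 1 CPM or more, those spanning over 200 kb had a median log2 change of 0.05 with laser under either injection. The 8 collagens of that length had 0.13 under vehicle and 0.22 under cp-asiNRL. With cp-asiNRL, the long genes had a median of 0.07 in both WT and lasered retina, and the 8 collagens 0.12 and 0.19. With the trend over gene span removed, the members' median was 0.08 with laser under vehicle (31 of 44 above 0) and 0.17 under cp-asiNRL (34 of 44). With CNV cp-asiNRL replicate 2 left out as well, 16 members were called for laser under cp-asiNRL (19.6% of genes), 15 of them higher. For cp-asiNRL in lasered retina 4 were called (16.9%), Col23a1, Col4a3, Col4a5 and Col4a6. Col13a1, Col24a1 and Col25a1, called there when only that library was left out, were not.

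Other genes of the collagen pathway were counted from fixed lists. Of 32 genes for chain folding, processing and crosslinking 31 were tested, with all 10 receptors and 8 of 12 turnover genes. Adamts14, Mmp1a, Mmp3, Mmp8 and Mmp13 had too few reads. No listed gene was called by limma-trend in any comparison of the 12 libraries. With laser under cp-asiNRL, 13 of the 31 processing genes were higher and 1 was lower at an unadjusted p under 0.05, with a median of 0.15, beside 9.47% and 7.74% of all genes. The smallest p was that of Crtap, part of the prolyl 3-hydroxylase complex (log2 change 0.30, SE 0.08, adjusted p = 0.211), followed by Colgalt2, which adds galactose to collagen (0.18, SE 0.06, adjusted p = 0.211). Among receptors it was that of Ddr1, a discoidin-domain receptor kinase (0.43, SE 0.14, adjusted p = 0.211), then Lair1, an inhibitory receptor of leukocytes (0.24, SE 0.08, adjusted p = 0.218). Among turnover genes Timp3, a metalloproteinase inhibitor of Bruch's membrane, was at 0.49 (SE 0.12, adjusted p = 0.211) and Timp2, another such inhibitor, at 0.39 (SE 0.12, adjusted p = 0.211). At an unadjusted p under 0.05, 4 receptors were higher and 0 lower, and 4 turnover genes were higher and 1 lower, beside the same shares of all genes. Without CNV cp-asiNRL replicate 2, limma called 13 processing genes higher and 1 lower, 4 receptors higher and 3 turnover genes higher, where 9.92% of all genes were called higher and 7.96% lower. In that fit Timp3 was at 0.67 (adjusted p = 0.000101), Timp2 at 0.57 (adjusted p = 0.000291), Ddr1 at 0.60 (adjusted p = 0.00202), Lair1 at 0.33 (adjusted p = 0.00749), Colgalt2 at 0.24 (adjusted p = 0.00701) and Crtap at 0.36 (adjusted p = 0.0111). Microglia and macrophage markers moved beside Lair1, with sums of 27.9 to 35.8 CPM in WT cp-asiNRL and 51.2, 31.5 and 56.9 CPM in CNV cp-asiNRL, and their part was not tested.

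With laser under vehicle, 5 processing genes were higher (3.98% of all genes were) and 1 was lower (3.69%) at an unadjusted p under 0.05. The smallest p in that list were those of Adamts3, a procollagen protease (0.20, SE 0.07, adjusted p = 0.621), and Loxl4, a lysyl oxidase (0.30, SE 0.12, adjusted p = 0.621). Among receptors they were Lair1 and Ddr2 (0.24 and 0.33, adjusted p = 0.613 and 0.709), and among turnover genes Timp3 and Mmp2 (0.27 and 0.14, adjusted p = 0.635 and 0.682). With cp-asiNRL in WT retina, 2 of 31 were higher and 4 lower, near the 5.55% and 9.79% of all genes, led by P4hb, a subunit of prolyl 4-hydroxylase (-0.25, SE 0.05, adjusted p = 0.0807), and Colgalt1 (-0.23, SE 0.06, adjusted p = 0.111). Both were called lower in the fit without CNV cp-asiNRL replicate 2 (adjusted p = 0.0138 and 0.0458; 2.34% of genes). In lasered retina, 4 of 31 were higher and 2 lower with cp-asiNRL, beside 7.65% and 8.41% of all genes, led by Pcolce2, an enhancer of procollagen cleavage (0.33, SE 0.08, adjusted p = 0.181), and Crtap (0.27, SE 0.08, adjusted p = 0.216). The receptors with the smallest p with cp-asiNRL were Itga2, the α2 integrin chain, and Lair1 in WT retina (0.27 and 0.18, adjusted p = 0.173 and 0.303) and Itga2 and Itga11 in lasered retina (0.26 and 0.31, adjusted p = 0.237 and 0.282). Among turnover genes these were Ctsk, a collagen-cutting protease, and Timp2 in WT retina (0.19 and 0.16, adjusted p = 0.329 and 0.533) and Timp2 and Timp1 in lasered retina (0.39 and 0.37, adjusted p = 0.22 and 0.265). With CNV cp-asiNRL replicate 2 left out, 5 processing genes were called higher and 2 lower in lasered retina, with 3 receptors and 4 turnover genes higher, where 8.87% of all genes were called higher and 8.66% lower.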

How the data were processed

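RNA was measured in 12 libraries made with a stranded kit for polyadenylated RNA, per the labels' protocols. Per the submitters' processing notes, the tools were HISAT2 2.1.0 and featureCounts 1.6.0. The notes name mm10, whereas the deposited coordinates are those of GRCm39. The deposited signal carries the name FPKM, per the file headers. However, value times length was whole within 1e-06 for all 482424 values, so it is reads per base of genomic span, not scaled to depth.

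Reads were recovered, scaled with trimmed means (trims of 30% and 5%), and tested as log2(CPM + 1) by limma-trend (limma 3.58.1, R 4.3.3) using 4 group means and Benjamini-Hochberg adjustment at 0.05. The 25619 genes tested had 15 reads in total and, in 3 or more libraries, the equivalent of 10 reads in a library of median size. The column is not counts as deposited, so no count model was run. Within groups the chi-square per gene between libraries was 4.20 to 49.6, and none was taken as a copy. The procedure was run on simulated counts drawn gene by gene, without an effect shared by the genes of a library. That run therefore does not cover a case such as CNV cp-asiNRL replicate 2.

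Members and lists were chosen with earlier results of these data known. Values by library are given for 8 fixed members and, in each comparison, the 3 members with the smallest p. Of each pathway list, the 2 genes with the smallest p are named in the group comparisons. Coding lengths are the longest coding sequence in GENCODE M21, in place of the protein lengths first planned. Promoters are RefSeq windows of GRCm38.p6. Alternatives covered the scaling, filter, pseudocount, test, libraries in the fit, replicate block and the omission of each library in turn. A fit with the span trend removed, and the pathway counts without CNV cp-asiNRL replicate 2, were chosen after seeing the data.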

Additional observations from a re-analysis of the deposited data

How the results depend on the processing

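The count of called collagens by limma-trend was 0 in each comparison of the 12 libraries and stayed 0 in both scalings, filters and pseudocounts tried and in voom without quality weights. With laser under cp-asiNRL it was 16 with voom and sample quality weights (17.2% of genes called), and 16, of which 15 higher and 1 lower, with the span trend removed and CNV cp-asiNRL replicate 2 left out (19.6%). For cp-asiNRL in WT retina it was 2 with voom and quality weights (6.66%) and 5 with the 6 WT libraries alone (6.68% called lower). For cp-asiNRL in lasered retina it was 4 with voom and quality weights (11.4%), and 4 with the span trend removed and that library left out (16.9%). Over the fits that leave out 1 library, the counts ran from 0 to 0 for laser under vehicle, 0 to 16 for laser under cp-asiNRL, 0 to 1 for cp-asiNRL in WT retina, 0 to 7 in lasered retina and 0 to 0 for the interaction, the highest values each without CNV cp-asiNRL replicate 2, where 9.92% of genes were called higher and 7.96% lower, 2.34% lower, and 8.87% higher and 8.66% lower in these 3 comparisons. The cause of these differences was not tested. With the trimmed-mean factor left out, the share of all genes above 0 with laser under cp-asiNRL was 62.5%, with 40 of 44 members above 0. No log2 change of a member with one of the 3 smallest p changed sign. With the replicate number as a block the count was 0 in all 5 comparisons. Deviations from group means had correlations of -0.52 to 0.31 between same-numbered libraries. With 3 libraries a group, these values cannot show whether the numbers pair the samples. Members of few reads, such as Col1a1 with 1 to 40, limit what could be detected.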
